A study of Mus musculus with 12 samples.

Results

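The genes described here are the 69 rows of a mouse skin expression table whose KEGG annotation names the complement and coagulation cascades, after 18 of the 87 rows with that annotation had been set aside because their symbols begin with Serpin, Itg or Bdkrb. They were chosen by annotation and symbol among 36400 genes, with no measured value in the rule. RNA was sequenced from dorsal skin of BALB/c mice, all female and 6 weeks old when purchased. Skin was taken on day 30 from groups of 6 mice. Each of 4 groups had 3 libraries, taken here as 1 mouse each, although the sample titles number them without saying so. The control group had the vehicle alone, a mixture of acetone and olive oil. DNCB mice were sensitized with 1% 1-chloro-2,4-dinitrobenzene, a contact allergen that produces an atopic dermatitis-like inflammation, and then challenged with 0.5%. The scMSC and scivMSC mice had the same DNCB course and also received human umbilical cord mesenchymal stem cells (MSCs), 2000000 in each of 4 injections from day 13 to day 25, so that 3 of the 4 groups carried the allergen. Each scMSC injection placed 100 µL under the skin, while scivMSC mice had 50 µL by that route and 50 µL through a tail vein. The injected cells are human and the table lists mouse genes, and whether any human RNA was counted in them was not tested.

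Complement is a chain of plasma proteases that marks surfaces through C3, attracts leukocytes through the anaphylatoxins C3a and C5a, and ends in a membrane pore built from the terminal components. It starts by the classical route through C1q, the lectin route through mannose-binding proteins and their MASP proteases, or the alternative route through factors B and D, and it is held back on host cells by regulators such as Cd55 and Cd59. Coagulation starts when tissue factor binds factor VII, activates factor X and then thrombin, and lays down fibrin. Thrombomodulin, the endothelial protein C receptor and tissue factor pathway inhibitor oppose it, and the plasminogen activators dissolve the clot. Most plasma members are made by the liver, while keratinocytes, fibroblasts, endothelium, adipocytes and leukocytes of the skin make others.

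Of the 69 genes, 41 had a mean of at least 1 FPKM (fragments per unit of transcript length and of library size, a level corrected for gene length) over the 12 libraries and 16 a mean of at least 10. The highest means were those of Cfd, which encodes complement factor D or adipsin (271 FPKM), C1qa (80.5 FPKM), C3 (66.3 FPKM), C1qb (43.9 FPKM) and C1s1 (43.3 FPKM). A mean of at least 0.1 FPKM was required for testing. It left out 6 members, A2m, F13b, F11, F8, Cr2 and Zp3r, and 63 were tested among 21890 genes. Members took from 0.0978% to 0.336% of all estimated counts in a library. A gene is called here when its Benjamini-Hochberg adjusted p in edgeR's quasi-likelihood test is under 0.05 over all genes tested and its log2 fold change is beyond 1 in either direction. The 3 libraries of a group were taken as separate mice, and an exact permutation test of a single gene between groups of 3 could not give a two-sided p under 0.10.

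Before the comparisons, 2 libraries need to be named. Control 3 and scivMSC 3 lay apart from the others of their groups in the markers of macrophages and monocytes, a list of 7 genes that summed to 540 FPKM in control 3 against 142 and 152 in the other control libraries, and to 36.6 FPKM in scivMSC 3 against 244 and 331. The summed level of the members themselves was 1127 FPKM in control 3 against 641 and 672, and 446 FPKM in scivMSC 3 against 1131 and 1247. Library totals lay between 63877153 and 75134001 estimated counts. Keratinocyte markers were abundant throughout, with Krt5 from 759 to 3259 FPKM. The counts below are therefore also given with both libraries left out, an alternative added after the data were seen.

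Cfd, F10, F2r and Plaur were called in each of the 3 comparisons of DNCB skin, with control, scMSC and scivMSC, Cfd lower and the other 3 higher in DNCB each time. The 3 comparisons share the DNCB libraries. The share of all genes called in all 3 is not given here, so whether these calls are unusual cannot be told. Cfd cleaves factor B in the alternative pathway, F10 is factor X, F2r is the thrombin receptor PAR1, and Plaur is the urokinase receptor. Because they were the members called in all 3 comparisons, the 250 bases upstream of their starts are given as in RefSeq on GRCm38.p6, 5′ to 3′ on the strand of the gene, with any match to 3 inflammation-related motifs in capitals. The genes themselves, all protein-coding, lie at chr10:79890853-79892655 (Cfd, ENSMUSG00000061780), chr8:13037308-13056676 (F10, ENSMUSG00000031444), chr13:95601803-95618487 (F2r, ENSMUSG00000048376) and chr7:24462484-24475968 (Plaur, ENSMUSG00000046223). Cfd lies on the plus strand with its window at chr10:79890603-79890852, F10 on the plus strand at chr8:13037058-13037307, F2r on the minus strand at chr13:95618467-95618716 and Plaur on the plus strand at chr7:24462233-24462482. The windows end at the RefSeq starts, and that of F2r reaches into the gene as placed above.
Cfd: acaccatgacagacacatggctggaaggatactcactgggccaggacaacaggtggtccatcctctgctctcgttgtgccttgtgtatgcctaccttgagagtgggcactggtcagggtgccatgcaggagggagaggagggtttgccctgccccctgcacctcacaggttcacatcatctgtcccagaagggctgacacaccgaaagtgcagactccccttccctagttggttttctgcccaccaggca
F10: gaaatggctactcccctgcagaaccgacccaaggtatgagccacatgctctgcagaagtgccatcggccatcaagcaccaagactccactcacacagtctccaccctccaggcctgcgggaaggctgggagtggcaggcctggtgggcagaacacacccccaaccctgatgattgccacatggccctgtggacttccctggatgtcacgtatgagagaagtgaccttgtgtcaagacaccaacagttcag
F2r: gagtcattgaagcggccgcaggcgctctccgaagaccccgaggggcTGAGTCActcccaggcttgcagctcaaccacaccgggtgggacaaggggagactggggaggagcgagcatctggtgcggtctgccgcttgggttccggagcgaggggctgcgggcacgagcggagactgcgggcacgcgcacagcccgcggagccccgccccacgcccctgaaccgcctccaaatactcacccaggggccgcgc
Plaur: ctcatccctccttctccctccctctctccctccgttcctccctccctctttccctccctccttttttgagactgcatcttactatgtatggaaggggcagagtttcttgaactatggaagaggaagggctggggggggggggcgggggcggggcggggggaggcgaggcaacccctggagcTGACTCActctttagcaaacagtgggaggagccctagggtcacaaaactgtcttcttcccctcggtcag
The motifs searched on both strands were AP-1 (TGANTCA), NF-kB (GGGA and TCC with 3 bases of any kind between) and STAT (TTCNNNGAA), which do not contain one another. The windows of F2r and Plaur each hold 1 AP-1 match, and those of F10 and Cfd hold none of the 3. Among the 57 RefSeq windows of 53 members, 9 (15.8%) held AP-1, 1 (1.75%) NF-kB and 8 (14.0%) STAT, against 6.75%, 3.86% and 7.02% of 32851 windows of the same length over all genes. These are matches of letters, not measured binding.

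In DNCB skin against control skin, the urokinase receptor, coagulation factors VII and X, the thrombin receptor and the anticoagulant receptors were higher, and adipsin and both Cd59 genes were lower. Of the 63 members, 10 were called higher and 3 lower, together 20.6%, while 14.2% of all genes tested were called, 6.59% higher and 7.57% lower. The median log2 fold change of the members was 0.42 against 0.02 over all genes, and 45 of 63 lay above 0. The members called higher were Plaur, F10, F7, Procr, Thbd, F2r, Plat, Kng2, Masp1 and Plau. The members called lower were Cfd, Cd59a and Cd59b. Without control 1, 8 were called where 11.3% of all genes were. Without control 3 and scivMSC 3 together, 19 were called where 14.9% of all genes were, of which 11 were shared with the 13. The addition included C1qa, C1qb, C1qc, C3ar1, C5ar1, C6 and Vsig4, and Kng2 and Masp1 were lost.

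DNCB skin was also higher than the skin of mice given MSCs in part of these genes. Against scMSC skin, 8 members were called higher (Plaur, F10, Thbd, Cd46, Klkb1, F2r, Plau and Tfpi) and Cfd lower, together 14.3% of the 63 where 8.5% of all genes were called, 3.84% higher and 4.66% lower. Against scivMSC skin, 4 were called higher (Plaur, F10, F2r and Masp1) and Cfd lower, 7.94% of members where 5.46% of all genes were called, 2.33% higher and 3.13% lower. The median member log2 fold change was 0.66 against scMSC and 0.67 against scivMSC, over medians of -0.02 and -0.02 for all genes. In each of these comparisons 52 of 63 members lay above 0. The 3 comparisons share the DNCB libraries, so their directions are not independent of one another. The count against scMSC fell to 5 without DNCB 1, 4 without DNCB 2, 4 without scMSC 2 and 5 without scMSC 3, where 5.89%, 5.62%, 5.58% and 6.77% of all genes were called, so that the members' share came near that of all genes. It rose to 16 without control 3 and scivMSC 3, where 9.46% of all genes were called, with C1qa, C1qb, C1qc, C3ar1, C5ar1, C6, Cfb and F7 added and Klkb1 lost. The count against scivMSC was 3 without DNCB 1, 3 without DNCB 2 and 8 without scivMSC 2, where 2.48%, 2.28% and 6.59% of all genes were called, and 4 without control 3 and scivMSC 3, where 2.92% of all genes were called.

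**Figure D1:**
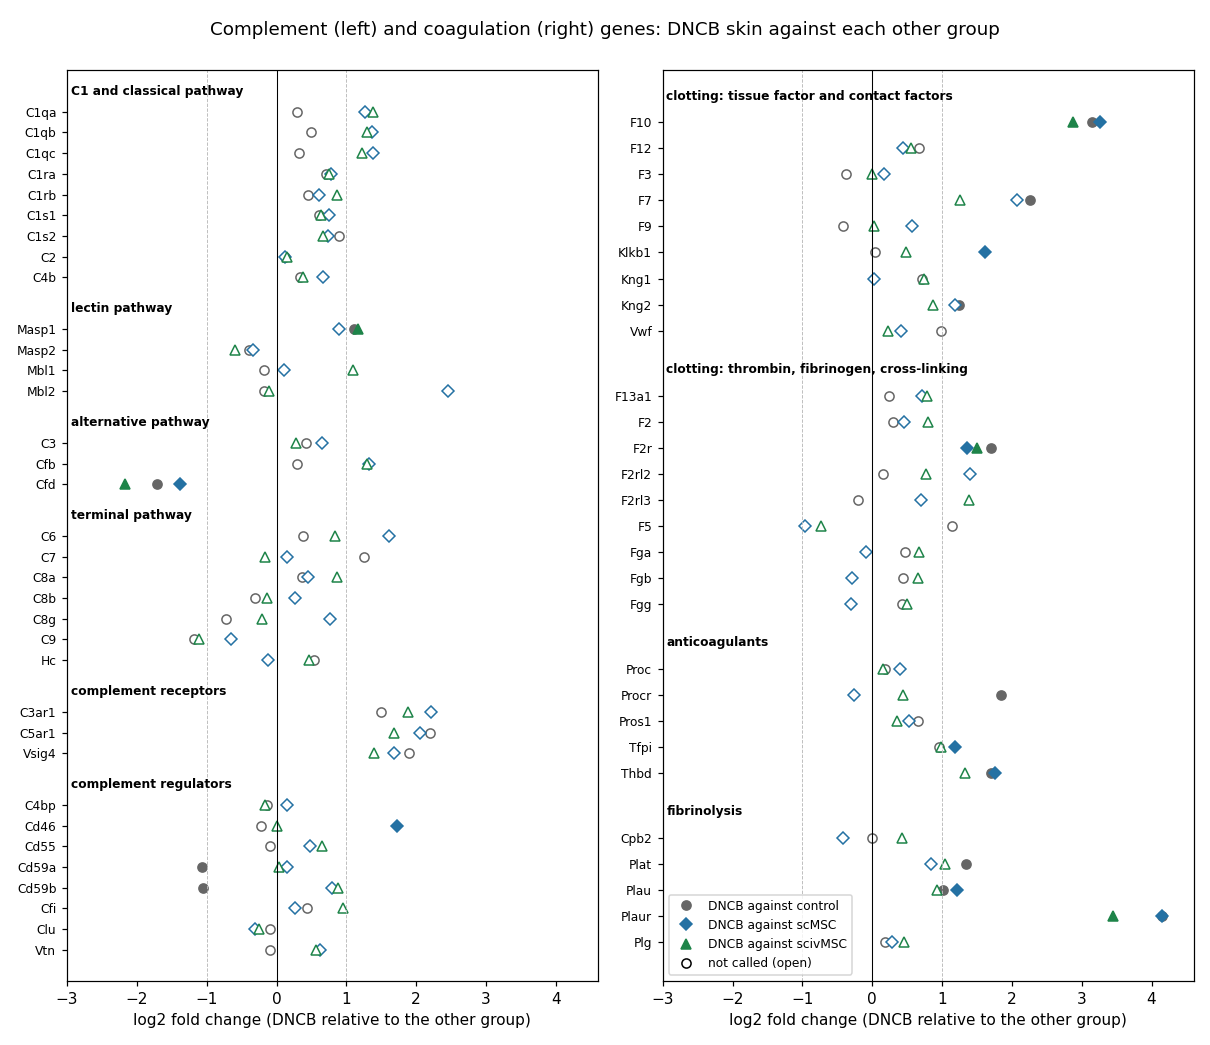
Log2 fold change (x axis) of 62 of the 63 tested members (y axis, by role) in DNCB skin relative to control, scMSC and scivMSC skin, with filled symbols for called genes, open symbols for the others, and dashed lines at a log2 fold change of 1 in either direction. Plaur and F10 lie farthest right in all 3 comparisons, from 2.87 to 4.14, and Cfd farthest left, from -2.18 to -1.38.

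Among all 12 libraries, 13 tested members were higher in each DNCB library than in each of the 9 others, 20.6% of the 63, where 9.44% of all genes tested were. They were C1s1, C3ar1, C5ar1, F10, F2r, F7, Kng2, Masp1, Plat, Plau, Plaur, Thbd and Vsig4. Cfd alone was lower in every DNCB library than in every other library, where 4.03% of all genes were.

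The fibrinolysis genes held the largest difference. Plaur, the receptor that concentrates urokinase at the cell surface, was at 1.69, 0.668 and 1.86 FPKM in control 1, 2 and 3, at 37.0, 28.0 and 19.3 FPKM in DNCB, at 1.88, 2.07 and 0.695 FPKM in scMSC and at 1.99, 4.47 and 1.31 FPKM in scivMSC. All 3 DNCB libraries stood far above the other 9, which overlapped among their groups. The difference from control was 4.14 ± 0.59 on the log2 scale (SE, edgeR adjusted p = 0.00115), that from scMSC 4.14 ± 0.59 (adjusted p = 0.00239) and that from scivMSC 3.45 ± 0.57 (adjusted p = 0.00746), and these calls held without any 1 library. Plau, which encodes urokinase itself, was at 18.6, 22.4 and 30.9 FPKM in control, 49.4, 63.0 and 51.9 FPKM in DNCB, 29.0, 21.1 and 20.1 FPKM in scMSC and 32.3, 39.9 and 15.1 FPKM in scivMSC. Its DNCB libraries were again the highest 3, by 1.02 ± 0.29 on the log2 scale (adjusted p = 0.0251) against control and 1.21 ± 0.29 (adjusted p = 0.0206) against scMSC, and by 0.92 ± 0.29 (adjusted p = 0.0785) against scivMSC, which was not called. The call against control was lost without control 1, control 2, DNCB 2, DNCB 3, scMSC 2 or scivMSC 3 (adjusted p up to 0.118, log2 fold change down to 0.84), and that against scMSC without DNCB 2, scMSC 2 or scMSC 3 (adjusted p up to 0.0751). Without scivMSC 2 the difference from scivMSC was called, at 1.2 (adjusted p = 0.0376).

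Plat, the tissue-type plasminogen activator, was at 3.03, 3.99 and 3.83 FPKM in control, 11.2, 11.3 and 8.86 FPKM in DNCB, 7.30, 3.80 and 6.20 FPKM in scMSC and 4.91, 7.84 and 2.67 FPKM in scivMSC. It rose by 1.35 ± 0.32 on the log2 scale in DNCB against control (adjusted p = 0.0111), although not without control 1 (adjusted p = 0.0551). Its differences from scMSC, 0.85 ± 0.32 (adjusted p = 0.114), and from scivMSC, 1.03 ± 0.32 (adjusted p = 0.0731), were not called. The latter was called without scivMSC 2 (1.45, adjusted p = 0.0166) and by DESeq2 (1.05, adjusted p = 0.0155). Plg, which encodes plasminogen, the zymogen that both activators cleave, and Cpb2, the carboxypeptidase that slows fibrin breakdown, were called in no comparison, with group means from 1.02 to 1.41 FPKM and from 0.418 to 0.753 FPKM.

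**Figure D2:**
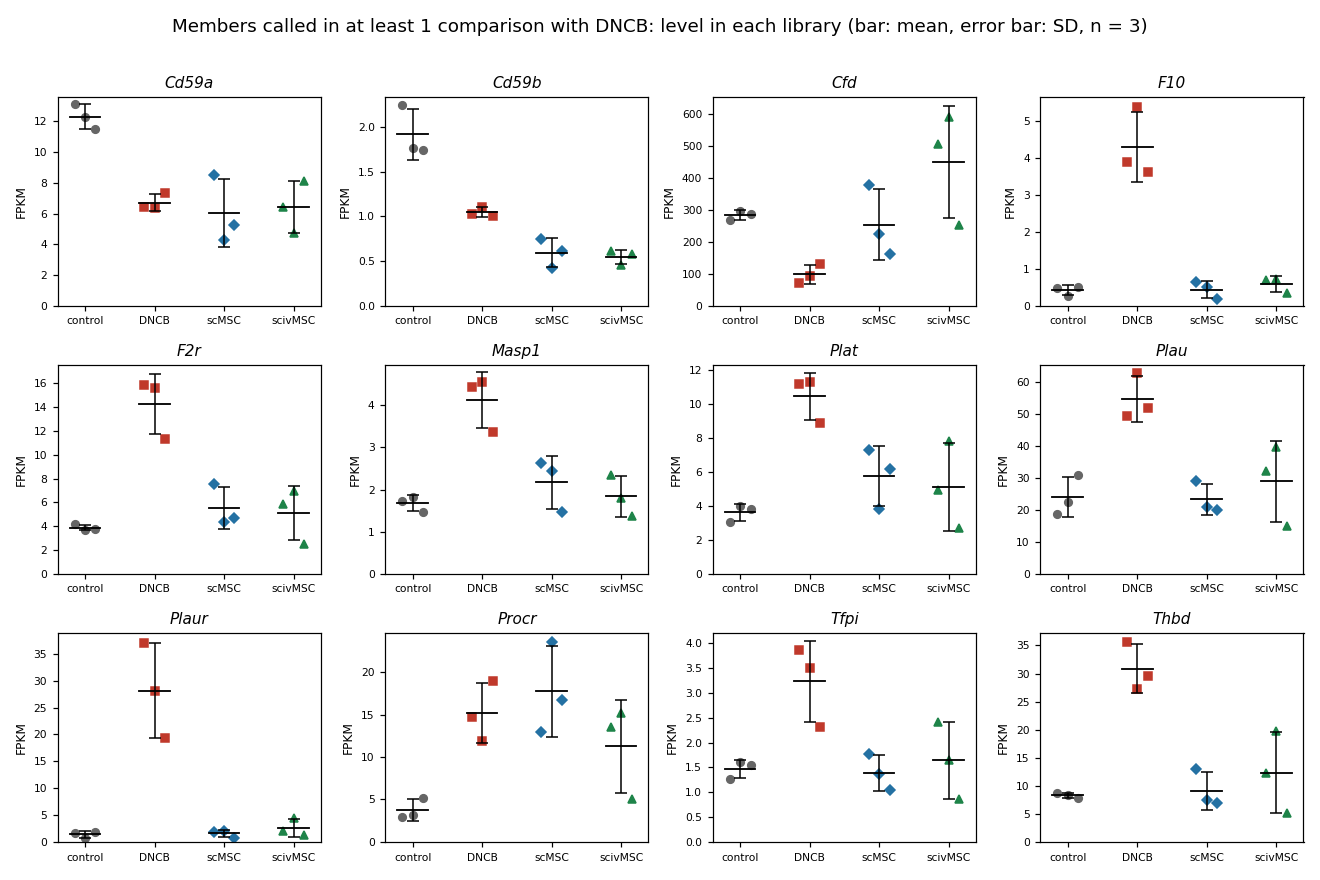
FPKM (y axis, from 0) in each library of the 12 members that were called in at least 1 comparison with DNCB and had a mean of at least 1 FPKM, with points for the 3 libraries of each group, a bar for the mean and an error bar for the SD (n = 3). The DNCB points of Plaur lie between 19.3 and 37.0 FPKM and all others at or under 4.47 FPKM, while those of Cfd lie under all others.

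Among the initiating clotting factors, F10 and F7 are neighbours, 1498 bases apart on the plus strand of chromosome 8 (GRCm38). F10 was at 0.482, 0.277 and 0.514 FPKM in control, 3.91, 5.39 and 3.62 FPKM in DNCB, 0.635, 0.499 and 0.183 FPKM in scMSC and 0.708, 0.718 and 0.338 FPKM in scivMSC. Its DNCB libraries did not overlap with any other, and exceeded control by 3.15 ± 0.47 on the log2 scale (adjusted p = 0.00135), scMSC by 3.26 ± 0.47 (adjusted p = 0.00254) and scivMSC by 2.87 ± 0.47 (adjusted p = 0.00705). These 3 calls also held without any 1 library. F7, with group means of 0.263, 1.42, 0.328 and 0.60 FPKM in control, DNCB, scMSC and scivMSC, rose by 2.25 ± 0.64 against control (adjusted p = 0.0245). The call was lost without control 1, control 2, DNCB 1 or DNCB 2 (adjusted p up to 0.0852). The difference of 2.07 ± 0.63 from scMSC (adjusted p = 0.0548) missed the threshold. Tissue factor, encoded by F3 and the trigger of the chain, stayed in a narrow range. It was at 21.6, 22.6 and 24.7 FPKM in control, 24.5, 16.9 and 18.8 FPKM in DNCB, 19.3, 15.7 and 18 FPKM in scMSC and 22.6, 17.2 and 20.4 FPKM in scivMSC. The DNCB libraries overlapped with those of every other group, all control libraries lay above all scMSC libraries, and F3 was called in no comparison, with a log2 fold change of -0.38 ± 0.15 in DNCB against control (adjusted p = 0.0914) and of -0.54 ± 0.15 in scMSC against control (adjusted p = 0.0309).

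Of the contact and carrier factors, Kng2, a kininogen gene, rose in DNCB against control by 1.25 ± 0.36 (adjusted p = 0.0257), with means of 0.920 FPKM in DNCB and 0.340 FPKM in control, and lost that call without any 1 of the 3 control libraries, DNCB 1 or DNCB 3 (adjusted p up to 0.0985). Klkb1, which encodes plasma prekallikrein, was low in every group, from 0.0355 to 0.187 FPKM, and higher in DNCB than in scMSC by 1.61 ± 0.46 (adjusted p = 0.0434). That call was lost without any 1 of the control, DNCB or scMSC libraries (adjusted p up to 0.148). F9, F12, Kng1 and Vwf, the von Willebrand factor gene, were called in no comparison.

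Downstream of factor X, the thrombin receptor gene F2r was at 4.15, 3.69 and 3.79 FPKM in control, 15.9, 15.6 and 11.3 FPKM in DNCB, 7.51, 4.36 and 4.70 FPKM in scMSC and 5.82, 6.96 and 2.54 FPKM in scivMSC. Every DNCB library exceeded every other. On the log2 scale DNCB exceeded control by 1.69 ± 0.31 (adjusted p = 0.0034), scMSC by 1.35 ± 0.31 (adjusted p = 0.0166) and scivMSC by 1.49 ± 0.31 (adjusted p = 0.0182). The call against scMSC was lost without DNCB 1, DNCB 2, scMSC 2 or scMSC 3 (adjusted p up to 0.0715), and that against scivMSC without DNCB 1, DNCB 2 or scivMSC 1 (adjusted p up to 0.0644) and when the 6 libraries were compared alone (adjusted p = 0.0552). The other thrombin receptor genes of the list, F2rl2 and F2rl3, were called in no comparison, nor was F2, which encodes prothrombin, at group means from 0.639 to 1.12 FPKM. The fibrinogen genes Fga, Fgb and Fgg, adjacent on chromosome 3, were not called either, and the highest library of each was scMSC 1, at 7.11, 6.06 and 10.1 FPKM. F13a1, the fibrin cross-linking factor XIII A, was at 7.77, 7.91 and 23.4 FPKM in control, 14.0, 15.2 and 22.2 FPKM in DNCB, 16.5, 5.40 and 9.47 FPKM in scMSC and 14.1, 14.5 and 1.80 FPKM in scivMSC. Its highest and lowest libraries were control 3 and scivMSC 3, the groups overlapped, and it was not called.

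The anticoagulants Thbd, Procr and Tfpi differed in different comparisons. Thbd, thrombomodulin, which turns thrombin towards protein C, was at 8.74, 8.38 and 7.82 FPKM in control, 35.7, 27.2 and 29.6 FPKM in DNCB, 12.9, 7.40 and 6.86 FPKM in scMSC and 12.2, 19.7 and 5.19 FPKM in scivMSC. The DNCB libraries were the highest 3, by 1.70 ± 0.38 on the log2 scale against control (adjusted p = 0.00782), 1.75 ± 0.38 against scMSC (adjusted p = 0.0125, but 0.0564 without scMSC 2) and 1.33 ± 0.37 against scivMSC (adjusted p = 0.0521, not called, but 0.045 without scMSC 1 and 0.0135 without scivMSC 2). DESeq2 called that last difference (adjusted p = 0.00502), as did limma on log2(FPKM + 0.1) (adjusted p = 0.0400) and on log2(FPKM + 1) (adjusted p = 0.0347). In edgeR it was also called with a mean of at least 1 FPKM required, with estimated counts divided by 4 and with the replicate block (adjusted p from 0.0409 to 0.0458). It was not called with DESeq2's size factors in edgeR, with library size alone, without a filter or in the 6 libraries alone. Procr, the endothelial protein C receptor, was at 2.92, 3.15 and 5.21 FPKM in control, 14.7, 11.9 and 19.0 FPKM in DNCB, 12.9, 23.6 and 16.8 FPKM in scMSC and 13.5, 15.2 and 5.03 FPKM in scivMSC. It was therefore high in 8 of the 9 libraries of allergen-treated mice and at the control level in scivMSC 3, and it rose against control by 1.84 ± 0.39 in DNCB (adjusted p = 0.00653). Tfpi, tissue factor pathway inhibitor, was at 1.26, 1.61 and 1.54 FPKM in control, 3.87, 3.51 and 2.32 FPKM in DNCB, 1.77, 1.37 and 1.04 FPKM in scMSC and 2.41, 1.65 and 0.867 FPKM in scivMSC. It was higher in DNCB than in scMSC by 1.19 ± 0.33 (adjusted p = 0.0405), and the call was lost without any 1 control library, DNCB 1, DNCB 2, scMSC 2, scMSC 3 or scivMSC 2 (adjusted p up to 0.132). Against control its difference was 0.95 ± 0.33 (adjusted p = 0.0594), not called. It was called without DNCB 3 (1.14, adjusted p = 0.0497), with scaling by library size alone (1.13, adjusted p = 0.0333) and by limma on log2(FPKM + 0.1) (1.06, adjusted p = 0.0375). Proc, protein C, and Pros1, its cofactor protein S, were not called.

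Markers of other cell types moved with these genes. Neutrophil markers were higher in DNCB for 5 of the 6 tested in all 3 comparisons, and the 7 listed summed to 2407 to 3330 FPKM in DNCB, 121 to 208 in control, 15.0 to 64.9 in scMSC and 33.5 to 170.5 in scivMSC. The defining marker Ly6g was at 0 in each of the 9 libraries outside DNCB, and Mpo, a marker of immature neutrophils, was lower in DNCB than in control. Fibroblast markers were higher in DNCB for 4 of 5 against control, 3 of 5 against scMSC and 0 of 5 against scivMSC, and summed to 1761 to 2074 FPKM in DNCB, 196 to 289 in control, 218 to 676 in scMSC and 115 to 872 in scivMSC. Endothelial markers were higher for 1, 3 and 1 of 5 in the same order, and summed to 44.0 to 54.2 FPKM in DNCB, 22.7 to 30.8 in control, 18.6 to 32.9 in scMSC and 12.9 to 36.1 in scivMSC. Platelet markers were higher for 2, 2 and 1 of the 4 tested, and the 5 listed summed to 49.4 to 60.8 FPKM in DNCB and to 5.90 to 25.1 FPKM in the 9 others. Mast cell markers, at 88.3 to 105.0 FPKM in DNCB and 17.6 to 114 FPKM elsewhere, were higher for 1 of 5 against control and for none against scMSC or scivMSC. Their part in the results for Plaur, F10, F2r, Thbd and the others was not tested. In bulk skin, more or fewer cells of a type cannot be told apart from more or less RNA per cell. No hepatocyte marker and no red blood cell marker was called in any comparison. Of 5 keratinocyte markers, Krt5 and Krt14 were called higher and Lor lower in DNCB in all 3.

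In the alternative pathway, Cfd was lower in DNCB. It was at 267, 295 and 287 FPKM in control, 71.6, 93.4 and 131 FPKM in DNCB, 377, 223 and 160 FPKM in scMSC and 504, 589 and 252 FPKM in scivMSC. All DNCB libraries lay under all others, and scMSC and scivMSC overlapped with control. The fall in DNCB was -1.71 ± 0.35 on the log2 scale against control (adjusted p = 0.00533), -1.38 ± 0.34 against scMSC (adjusted p = 0.0251) and -2.18 ± 0.35 against scivMSC (adjusted p = 0.00705). The call against scMSC was lost without DNCB 1, DNCB 2, scMSC 1 or scMSC 2 (adjusted p up to 0.0986). It was also lost when the 6 libraries were compared alone (adjusted p = 0.0549) and with the replicate number as a block (adjusted p = 0.0584). Cfd held 8.5% to 12.2% of the summed FPKM of the members in DNCB, 25.5% to 43.9% in control, 29.9% to 39.8% in scMSC and 44.6% to 56.4% in scivMSC. Adipocytes are a main source of adipsin, and the 4 adipocyte markers summed to 105 to 185 FPKM in DNCB, 137 to 254 in control, 154 to 303 in scMSC and 203 to 274 in scivMSC. Of them, 1 (Plin1, -1.15) was lower in DNCB than in control, none was called against scMSC, and 1 (Lep, 2.39) was higher in DNCB than in scivMSC. Their part in the difference of Cfd was not tested.

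C3, the protein on which the routes converge, was at 40.1, 39.4 and 89.7 FPKM in control, 59.8, 99.3 and 94.1 FPKM in DNCB, 93.2, 23.6 and 44.1 FPKM in scMSC and 109, 92.9 and 9.82 FPKM in scivMSC. The groups overlapped widely, and DNCB differed from control by 0.42 ± 0.70 on the log2 scale, from scMSC by 0.66 ± 0.70 and from scivMSC by 0.28 ± 0.70, none called (edgeR adjusted p from 0.635 to 0.872). Cfb, factor B, was at 12.9, 8.77 and 32.0 FPKM in control, 18.9, 22.4 and 31.6 FPKM in DNCB, 16.0, 5.51 and 7.55 FPKM in scMSC and 12.8, 13.8 and 3.44 FPKM in scivMSC. Every DNCB library exceeded every library of the MSC groups, at log2 fold changes of 1.32 ± 0.56 (adjusted p = 0.169) and 1.3 ± 0.56 (adjusted p = 0.20) that were not called, and control 3 was the highest library of all.

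In the classical pathway, with no call, the chains of C1q showed a like order of libraries. Not all its members did. C2 and C4b in DNCB 1, at 4.27 and 32.4 FPKM, lay under scMSC 1, at 7.22 and 47.0 FPKM. C1qa was at 46.1, 48.0 and 185 FPKM in control, 105, 120 and 155 FPKM in DNCB, 84.5, 33.2 and 40.3 FPKM in scMSC and 66.6, 72.6 and 9.15 FPKM in scivMSC. C1qb was at 22.1, 27.2 and 89.2 FPKM in control, 66.3, 69.2 and 80.1 FPKM in DNCB, 42.7, 19.0 and 21.5 FPKM in scMSC and 41.2, 43.9 and 4.51 FPKM in scivMSC. C1qc was at 18.9, 22.5 and 72.3 FPKM in control, 44.4, 52.1 and 61.4 FPKM in DNCB, 30.5, 14.3 and 15.4 FPKM in scMSC and 30.02, 34.6 and 3.83 FPKM in scivMSC. These are the chains of C1q, encoded side by side on chromosome 4, and each was highest in control 3 and lowest in scivMSC 3, with every DNCB library above the other 8. All 9 classical members lay above 0 in each DNCB comparison, and 0 of 9 were called in any. For C1qa the log2 difference of DNCB from control was 0.30 ± 0.68, from scMSC 1.26 ± 0.69 and from scivMSC 1.38 ± 0.69 (adjusted p from 0.273 to 0.801). Without control 3 and scivMSC 3, it was 1.17 (adjusted p = 0.0376) against control and 1.27 (adjusted p = 0.0239) against scMSC, both called, and 0.88 (adjusted p = 0.196) against scivMSC, not called.

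The macrophage and monocyte markers ran alongside. They summed to 570 to 602 FPKM in DNCB, 142 to 540 in control, 120 to 296 in scMSC and 36.6 to 331 in scivMSC, and 0 of 7 were called in any comparison. Tissue macrophages are a main source of C1q, and the part of these markers in the levels of C1q was not tested. C1ra, C1rb, C1s1 and C1s2, the proteases that C1q activates, had group means in DNCB of 30.7, 7.41, 61.3 and 7.52 FPKM, and in the other groups from 16.8 to 18.5, 4.11 to 4.88, 35.8 to 40.1 and 3.58 to 4.78 FPKM. C1ra and C1rb share 48.0% and 59.2% of their 50-base transcript words, C1s1 and C1s2 share 21.8% and 26.9%, and C4b shares 34.6% of its words with C4a, so the division of reads within these pairs is uncertain.

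**Figure D3:**
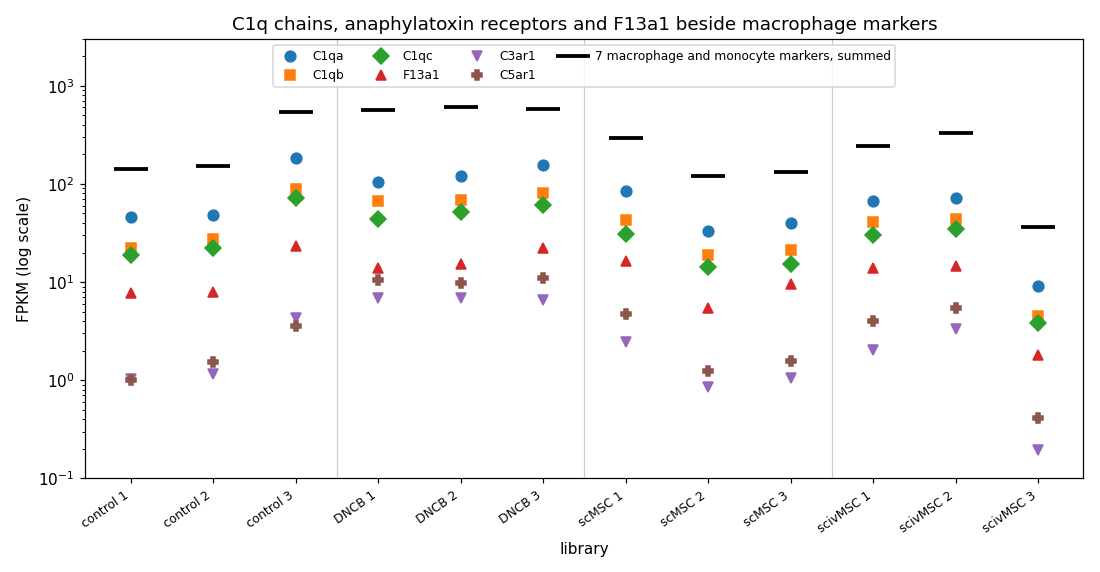
FPKM on a log scale (y axis) in each of the 12 libraries (x axis) for the C1q chains, F13a1 and the anaphylatoxin receptor genes C3ar1 and C5ar1, with a dash for the sum of 7 macrophage and monocyte markers. Control 3 rises above its group and scivMSC 3 falls below its group in all 6 genes and in the marker sum.

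The anaphylatoxin receptors were highest in DNCB. C5ar1, the C5a receptor carried by neutrophils and macrophages, was at 1.01, 1.53 and 3.55 FPKM in control, 10.5, 9.79 and 10.9 FPKM in DNCB, 4.72, 1.26 and 1.55 FPKM in scMSC and 4.03, 5.40 and 0.412 FPKM in scivMSC. C3ar1, the C3a receptor, was at 1.04, 1.16 and 4.29 FPKM in control, 6.90, 6.86 and 6.53 FPKM in DNCB, 2.47, 0.845 and 1.04 FPKM in scMSC and 2.05, 3.36 and 0.194 FPKM in scivMSC. For both, the DNCB libraries were close together and above all others, while the other groups were spread widely. C5ar1 was higher in DNCB by 2.19 ± 0.78 against control (adjusted p = 0.062), 2.05 ± 0.77 against scMSC (adjusted p = 0.118) and 1.69 ± 0.76 against scivMSC (adjusted p = 0.219), which edgeR did not call. Without scivMSC 3 it was called against control (adjusted p = 0.0143) and against scMSC (adjusted p = 0.0289), as it was by DESeq2 (adjusted p = 0.00885 and 0.0223). C3ar1 differed by 1.49 ± 0.80, 2.21 ± 0.82 and 1.88 ± 0.81 in the same order (adjusted p = 0.203, 0.111 and 0.194), and was called against scMSC without scivMSC 3 (adjusted p = 0.026) and by DESeq2 (adjusted p = 0.0169). Vsig4, the complement receptor of tissue macrophages, had means of 1.87 FPKM in DNCB and 0.451 to 0.719 FPKM elsewhere and was not called.

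In the lectin pathway, Masp1, a protease of that route, was at 1.73, 1.83 and 1.46 FPKM in control, 4.44, 4.56 and 3.36 FPKM in DNCB, 2.62, 2.44 and 1.46 FPKM in scMSC and 2.34, 1.80 and 1.37 FPKM in scivMSC. All DNCB libraries were above all others, by 1.11 ± 0.25 on the log2 scale against control (adjusted p = 0.00916), 0.89 ± 0.25 against scMSC (adjusted p = 0.0405, short of the fold required) and 1.17 ± 0.25 against scivMSC (adjusted p = 0.0213). Without control 3 the difference from control was 0.95 and no longer called, without DNCB 1, DNCB 2 or scivMSC 3 that from scivMSC was lost (adjusted p up to 0.0808), and that from scMSC was called without DNCB 3 or scMSC 1. Masp2, Mbl1 and Mbl2 were called in no comparison by edgeR. Of the 7 terminal components, which form the membrane pore, 0 were called in any comparison with DNCB.

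Among the regulators that protect host cells, both Cd59 genes fell against control in each of the allergen-treated groups. Cd59a, which blocks assembly of the pore, was at 13.1, 12.3 and 11.5 FPKM in control, 6.41, 6.37 and 7.33 FPKM in DNCB, 8.52, 4.27 and 5.26 FPKM in scMSC and 6.39, 4.76 and 8.13 FPKM in scivMSC. Cd59b, its neighbour 4613 bases away on chromosome 2 with the same activity, was at 2.24, 1.77 and 1.74 FPKM in control, 1.03, 1.11 and 1.00 FPKM in DNCB, 0.741, 0.419 and 0.615 FPKM in scMSC and 0.609, 0.460 and 0.578 FPKM in scivMSC. Every control library of both genes lay above every other library, as in 5.97% of all genes tested. The fall against control was -1.06 ± 0.26 (adjusted p = 0.0129), -1.21 ± 0.26 (adjusted p = 0.0101) and -1.10 ± 0.26 (adjusted p = 0.0201) for Cd59a in DNCB, scMSC and scivMSC. For Cd59b it was -1.06 ± 0.30 (adjusted p = 0.0263), -1.86 ± 0.31 (adjusted p = 0.00315) and -1.94 ± 0.31 (adjusted p = 0.00557). The Cd59b call in DNCB was lost without control 1 or any 1 DNCB library (adjusted p up to 0.0824), and the Cd59a call in scivMSC without control 1, scivMSC 1 or scivMSC 2 (adjusted p up to 0.0723). Scaling by library size alone ended both calls in DNCB. The 2 genes share 3.87% and 5.32% of their 50-base words.

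Cd46, a membrane cofactor for C3b cleavage, was low, with means of 0.474, 0.463, 0.136 and 0.463 FPKM in control, DNCB, scMSC and scivMSC. All scMSC libraries were under all others, at or below 0.171 FPKM. Cd46 was higher in DNCB than in scMSC by 1.73 ± 0.38 (adjusted p = 0.0138), and lower in scMSC than in control by -1.95 ± 0.38 (adjusted p = 0.00623). Genes on both strands overlap Cd46, and whether the counting used strand is not given in the sources used here. Of the other members called, C8g, Masp1 and F5 overlap genes on the other strand, among them Fbxw5 for C8g and Rtp4 for Masp1. Klkb1, Kng2 and F5 overlap predicted genes on their own strand. The part of these overlaps in the calls was not tested. Clu, Vtn, Cd55, Cfi and C4bp were not called in any comparison.

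Compared with control skin, scMSC skin had 2 members called higher, Procr and F5, and 5 lower, Cd46, Cd59b, Klkb1, C8g and Cd59a, together 11.1% of the 63 where 9.32% of all genes were called, 5.12% higher and 4.2% lower. The scivMSC skin had Procr and F5 higher and Cd59a and Cd59b lower, 6.35% of members where 6.85% of all genes were called, 3.5% higher and 3.35% lower. Both shares were near those of all genes. Without control 1 the counts were 4 and 1, where 6.94% and 3.86% of all genes were called. Without DNCB 1, scivMSC 1 or scivMSC 2 the count for scivMSC was 2, 1 and 1, where 5.98%, 4.4% and 3.85% of all genes were called. Without control 3 and scivMSC 3 both counts were 4, where 9.78% and 8.24% of all genes were called. Procr rose by 2.11 ± 0.39 in scMSC (adjusted p = 0.00523) and by 1.40 ± 0.39 in scivMSC (adjusted p = 0.0373), the latter lost without control 1, control 2, DNCB 1, scivMSC 1 or scivMSC 2 (adjusted p up to 0.147). F5, coagulation factor V, was at 0.201, 0.660 and 0.207 FPKM in control, 0.904, 0.759 and 1.07 FPKM in DNCB, 1.36, 0.860 and 3.09 FPKM in scMSC and 1.19, 2.03 and 1.3 FPKM in scivMSC, so that every control library lay under all 9 others, as in 13.3% of all genes. It rose by 2.11 ± 0.55 in scMSC (adjusted p = 0.0233) and 1.88 ± 0.55 in scivMSC (adjusted p = 0.0461), and differed by 1.14 ± 0.54 in DNCB (adjusted p = 0.149), which was not called. The F5 call in scMSC was lost without control 1, control 3 or scMSC 3 (adjusted p up to 0.0889), and that in scivMSC without control 1, control 3, scMSC 1, any 1 DNCB or any 1 scivMSC library (adjusted p up to 0.156). C8g, of the terminal pathway, fell by 1.49 on the log2 scale in scMSC (adjusted p = 0.0391), and lost the call without control 1, control 2, DNCB 2, DNCB 3, scMSC 2 or scMSC 3 (adjusted p up to 0.119). Klkb1 fell by 1.57 (adjusted p = 0.0379), and lost the call without any 1 control or scMSC library, DNCB 1 or DNCB 2 (adjusted p up to 0.106).

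Skeletal muscle markers also differed between control and the other groups. They were lower than in control for 4 of 5 genes in each of DNCB, scMSC and scivMSC, and summed to 13312 to 19349 FPKM in control, 3528 to 5254 in DNCB, 3681 to 7911 in scMSC and 4004 to 9360 in scivMSC. Their part in the differences of Cd59a, Cd59b, Procr and F5 was not tested.

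**Figure D4:**
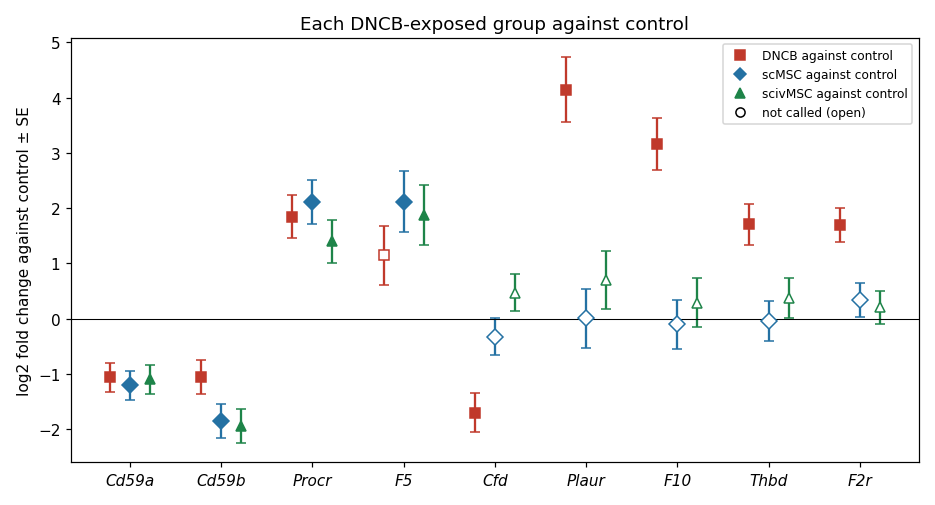
Log2 fold change against control with its SE (y axis) in DNCB, scMSC and scivMSC skin for 9 members (x axis), filled where called. Cd59a, Cd59b and Procr are called in all 3 groups with the same sign, whereas Cfd, Plaur, F10, Thbd and F2r are called in DNCB alone of the 3. The 9 members are a selection. Plat, Plau, F7, Kng2 and Masp1, also called in DNCB alone of the 3, are not plotted. The share of all genes with each pattern is not given here.

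Between the injection routes, 0 of the 63 members were called by edgeR, where 0.00457% of all genes were, and 6 had an unadjusted p under 0.05, as 7.5% of all genes had. DESeq2 called Cd46, which edgeR put at -1.73 ± 0.38 in scMSC relative to scivMSC (adjusted p = 0.565). Cfd was at -0.80 ± 0.34 (adjusted p = 0.656). These results do not show that the routes gave the same levels.

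Pathway genes outside the 69 were counted in the same fit. Of the 16 tested among the 18 set aside by symbol, 3 were called higher in DNCB than in control, 4 than in scMSC and 1 than in scivMSC, and 0 lower. The bradykinin receptor genes Bdkrb1 and Bdkrb2 were higher against control, by 2.89 and 2.39, and the complement receptor 3 subunits Itgam and Itgb2 against scMSC, by 3.35 and 2.66, together with Serpinb2, by 1.22. Of 19 tested from a list of 23 further genes, 2 were called higher against control, 4 higher and 1 lower against scMSC, and 2 higher and 1 lower against scivMSC. Of all genes tested, 6.59%, 3.84% and 2.33% were called higher in DNCB against control, scMSC and scivMSC, and 7.57%, 4.66% and 3.13% lower. Tfpi2, a relative of Tfpi, rose by 3.64, 3.47 and 2.53, and Cd93, a receptor of endothelium and myeloid cells, by 1.49, 1.63 and 1.39. The others against scMSC were C5ar2, the second C5a receptor, at 0.284 to 0.495 FPKM in DNCB and at most 0.0131 FPKM in scMSC, and Lman1, a cargo receptor for factors V and VIII, higher by 1.04. F2rl1, the receptor PAR2 of skin proteases, was the member of that list called lower, by -1.86 against scMSC and -1.17 against scivMSC, at 3.13 to 4.97 FPKM in DNCB, 11.2 to 20.8 FPKM in scMSC and 7.97 to 12.7 FPKM in scivMSC. Control, at 4.30 to 5.98 FPKM, overlapped with DNCB, which was not called against it (-0.46, edgeR adjusted p = 0.261). Against control F2rl1 was called higher in scMSC (1.40, edgeR adjusted p = 0.00742) and not called in scivMSC (0.71, edgeR adjusted p = 0.126).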

How the data were processed

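RNA of dorsal skin was sequenced in 12 libraries, and blood was not analysed here. The authors deposited 1 table of FPKM, scaled for gene length and library size, and of whole-number estimated counts, not normalized between libraries. The submitters' processing notes name Bowtie 0.12.2, HISAT2 2.0 and StringTie 1.3.0 with no role or order, and the coordinates are those of GRCm38. About 4 estimated counts stand for 1 fragment, and a gene was put at the floor where all libraries of a group had 12 estimated counts or fewer, which covers counting error only.

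The 21890 genes whose mean reached 0.1 FPKM entered edgeR's quasi-likelihood F-test (edgeR 4.0.16, R 4.3.3), after TMM normalization (factors 0.887 to 1.06), in 1 model of the 4 groups over all 12 libraries. Adjusted p-values are Benjamini-Hochberg over all genes tested, fold changes are of the first group relative to the second, and SEs come from the F statistic. Alternatives used DESeq2 1.42.0, limma 3.58.1 on log2(FPKM + 0.1) or log2(FPKM + 1), other scalings, filters and thresholds, the replicate number as a block, and each library left out in turn.

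Values in every library are printed for members with a mean of at least 1 FPKM that were called in a comparison with DNCB and for 15 members regardless of change, of which 1 is not reported here. F5 is outside that rule and was singled out with its values known. The members, gene lists and motifs were chosen with earlier results of these data known. Marker lists, which describe cell types and received no set test, cover keratinocytes, fibroblasts, macrophages, neutrophils, endothelium, platelets, hepatocytes, mast cells, red blood cells, skeletal muscle and adipocytes. The edgeR fit was run on simulated counts for DNCB against control, with the same spread for all genes and libraries. Those counts did not include uneven libraries such as control 3 and scivMSC 3. Tables used Python 3.11.15.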

Additional observations from a re-analysis of the deposited data

How the results depend on the processing

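The count of members called was 13 in DNCB against control, 9 against scMSC, 5 against scivMSC, 7 in scMSC against control, 4 in scivMSC against control and 0 between the MSC groups, and leaving out each library in turn gave 8 to 13, 4 to 12, 3 to 8, 4 to 7, 1 to 5 and 0 to 0. DNCB against scMSC gave 14 with DESeq2, 16 without control 3 and scivMSC 3 together and 15 at an unadjusted p under 0.05 with the fold required, where 11.9%, 9.46% and 13.3% of all genes were called. That last rule gave 11 against scivMSC and 3 between the MSC groups (11% and 3.33% of all genes), where DESeq2 gave 1 (0.548%). The scMSC group against control gave 1 with limma on log2(FPKM + 1), 4 when the 6 libraries were compared alone and 4 without control 3 and scivMSC 3, where 5.94%, 6.9% and 9.78% of all genes were called. The scivMSC group against control gave 2 without a filter, 1 with limma on log2(FPKM + 1) and 1 when 6 libraries were compared alone, where 3.76%, 4.68% and 3.64% of all genes were called. The replicate numbers gave no sign of pairing the libraries. Of 18 same-numbered pairs, 1 correlated over 0.1, and 2 of 12 libraries were closest to their own number. With 3 libraries a group, this check cannot exclude a shared batch. With the replicate block, scivMSC against control gave 2 calls (6.14% of all genes), and the other counts stayed within 1.5 times their value. The cause of these changes was not tested.

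Of 1518 values of 66 single-gene results under the alternatives, 1389 kept direction and side of the adjusted p threshold of 0.05. Another 57 passed it newly, 51 no longer passed and 21 turned in sign, none of the last called. The fold required for a call was not part of this count. Against control, leaving out 1 library gave log2 fold changes from -0.054 to 1.17 for C1qa, -0.028 to 1.09 for C1qc, -0.069 to 0.90 for Cfb and -0.052 to 0.87 for F13a1. Against scMSC it gave -0.0015 to 0.44 for Cd59a, -0.0040 to 0.27 for F3 and -0.47 to 0.067 for Procr, and against scivMSC -0.24 to 0.74 for C3, -0.16 to 0.28 for Cd59a and -0.18 to 0.094 for F3. Against scivMSC, C3 was at -0.24 without control 3 and scivMSC 3, and F3 at 0.012 with DESeq2, 0.012 with its size factors in edgeR, 0.00067 with library size alone and 0.030 without control 3 and scivMSC 3. Members with few counts, such as F7, Klkb1, Cd46 and Mbl2, are limited by depth, and FPKM with a pseudocount understates their changes.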

Other observations

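Genes of some liver-made plasma proteins were measured in skin. Alb, the albumin gene, was at 34.9 to 95.0 FPKM over the 12 libraries. Among the members, Plg had group means from 1.02 to 1.41 FPKM, F2 from 0.639 to 1.12 FPKM and Hc, which encodes C5, from 0.299 to 0.525 FPKM, and none of these was called in any comparison. The 6 members under the level for testing ranged up to 0.123 FPKM (F13b in DNCB), 0.118 FPKM (F8 in DNCB) and 0.140 FPKM (F11 in scMSC) as group means, and Zp3r was at 0 in 11 of the 12 libraries. Mbl2 was at the floor in the scMSC libraries, with 10, 12 and 0 estimated counts, and had 21 to 74 in the others.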
